A study of Mus musculus with 18 samples.

Results

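Neural crest identity genes were read in whole mouse embryos of embryonic day 9.5 that carried an allelic series of Tbx1, which encodes a T-box factor needed in the pharyngeal region. The set held 9 genes (Sox10, Foxd3, Tfap2a, Tfap2b, Ets1, Erbb3, Nr2f1, Twist1 and Snai2), listed for their known roles in the neural crest, and every probe set annotated with one of these symbols alone was taken. They amounted to 19 of 45037 probe sets, and to 9 of the 18193 genes that had a probe set with a single symbol. Ets1 had 4 probe sets, Sox10 and Tfap2a had 3 each, Tfap2b, Erbb3 and Snai2 had 2 each, and Foxd3, Nr2f1 and Twist1 had 1 each. Where 1 value per gene is given, it is that of the brightest probe set, the one with the highest mean over the arrays.

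RNA came from 18 embryos on a mixed 129SvEv and C57Bl/6 background, each on 1 array, with 2 embryos for each of 9 Tbx1 genotypes. The genotypes without a wild-type allele were -/-, Neo/Neo, Neo2/-, Neo2/Neo and Neo2/Neo2. Those with 1 wild-type allele were +/-, Neo/+ and Neo2/+, and WT embryos carried 2. The "-" allele is a null allele, and Neo and Neo2 are earlier reported hypomorphic alleles. The alleles were carried in the germ line, so every tissue of an embryo has its genotype, the embryos were staged by the day of the plug, and the labels name neither litters nor sex. All levels are log2 signals made by the robust multi-array average (RMA), which carries no detection call, and 2 arrays per genotype limit the precision of every difference. In RNA of whole embryos, fewer cells of a type and less RNA of a gene in each cell cannot be told apart. The brightest Snai2 probe set has the suffix _x_at, which marks probes that can also match other transcripts.

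The neural crest is a population of cells that forms at the border of the neural plate, leaves the neural tube by an epithelial to mesenchymal transition and migrates through the embryo. At midgestation its cranial and cardiac streams fill the pharyngeal arches, beside the pharyngeal endoderm and mesoderm in which Tbx1 is expressed. Tfap2a and Tfap2b act at the plate border and in early crest, and Foxd3, Snai2, Twist1 and Ets1 are tied to specification and delamination. Sox10 and the neuregulin receptor Erbb3 mark migrating and glial crest, and Nr2f1 is an orphan nuclear receptor of cranial crest, brain and other tissues. None of these genes is specific to the crest in a whole embryo.

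Upstream sequences of 3 members are shown, each the 250 bases before a gene start in the RefSeq table of mouse assembly GRCm38.p6: that of Nr2f1, whose signal differed most between genotypes among the 9 genes, and those of Twist1 and Foxd3, whose windows hold a motif of interest. Windows were matched for 5 of the 9 genes (Tfap2a, Tfap2b, Foxd3, Nr2f1 and Twist1), with 2 windows each for Tfap2a and Nr2f1. T-box factors bind the half-site AGGTGTGA, AGGTGT is its shorter core, and CANNTG is the E-box that factors such as Twist1 and Snai2 bind. Both strands were searched, and the core lies within the half-site while an E-box can overlap both. The Nr2f1 window shown, at the outer start of the gene, lies at chr13:78198874-78199123 on the minus strand, has a GC content of 72.0% and holds none of these motifs, so it has no capitals, while the other Nr2f1 window, at a start inside the gene, holds 2 E-boxes. The Twist1 window at chr12:33957421-33957670 on the plus strand has its capitals at the shorter T-box core read on the other strand, whose far end lies 6 bases before the start. The Foxd3 window at chr4:99656049-99656298 on the plus strand has its capitals at an E-box that lies 217 bases before the start.
Nr2f1: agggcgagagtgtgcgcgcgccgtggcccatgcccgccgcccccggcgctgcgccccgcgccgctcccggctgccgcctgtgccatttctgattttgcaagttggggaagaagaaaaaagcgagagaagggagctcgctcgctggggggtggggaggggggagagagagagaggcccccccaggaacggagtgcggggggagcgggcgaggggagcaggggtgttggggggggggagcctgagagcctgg
Twist1: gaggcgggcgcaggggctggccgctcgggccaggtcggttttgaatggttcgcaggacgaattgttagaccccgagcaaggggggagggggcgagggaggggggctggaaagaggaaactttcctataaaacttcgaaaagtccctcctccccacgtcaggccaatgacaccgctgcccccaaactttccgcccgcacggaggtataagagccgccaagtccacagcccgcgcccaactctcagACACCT
Foxd3: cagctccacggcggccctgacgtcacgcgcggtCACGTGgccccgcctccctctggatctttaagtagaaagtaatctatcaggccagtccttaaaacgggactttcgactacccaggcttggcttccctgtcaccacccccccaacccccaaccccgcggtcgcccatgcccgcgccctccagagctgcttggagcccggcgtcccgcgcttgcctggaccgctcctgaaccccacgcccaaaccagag

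The half-site was in 1.12% of the 32851 windows of the table, the shorter core in 11.8% and the E-box in 66.2%. The Tfap2b window also holds an E-box. No window matched to a member held the half-site, and among the members the core was found in that of Twist1 alone. The median GC content over all windows was 52.4%, against 72.0% for the Nr2f1 window, 62.4% for that of Twist1 and 65.6% for that of Foxd3. These matches describe letters and were not tested for binding.

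The Tbx1 signal set some of the genotypes apart from WT, but not all. It was 4.98 and 5.16 in -/- embryos, 5.04 and 5.20 in Neo/Neo, 5.62 and 5.81 in Neo2/- and 5.65 and 5.67 in Neo2/Neo, against 6.54 and 6.63 in WT embryos. It was 6.62 and 6.62 in Neo2/Neo2 embryos, at the level of the WT embryos, and between 6.13 and 6.61 in the 3 genotypes with 1 wild-type allele. Tbx1 fell in -/- embryos (log2 difference from WT -1.52, adjusted p = 0.00303 by limma) and in Neo/Neo embryos (-1.47, adjusted p = 0.00286). The arrays of -/- replicate 1 and +/- replicate 1 stood apart, with a median correlation of 0.985 and 0.975 to the other arrays across probe sets, against 0.991 to 0.995 for the other 16. Marker lists also differed between embryos of the same labelled stage: the summed linear signal of 6 stage genes was 1409 and 3831 in -/- embryos, 4219 and 4281 in Neo2/Neo2 and 1314 and 1549 in Neo2/Neo embryos, against 1668 and 1991 in WT embryos. Lin28a, a regulator of developmental timing, had genotype means of 10.48 in -/-, 11.72 in Neo2/Neo2 and 9.39 in Neo2/Neo embryos, against 10.16 in WT embryos. It took a large part of these sums. The stage genes did not all run alike. In Neo2/Neo embryos 4 of the 6 lay above WT and 2, Lin28a among them, below.

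No member passed the test in any comparison. Each probe set was tested with limma over the whole table, with Benjamini-Hochberg adjustment and a call at adjusted p under 0.05, and 0 of the 19 member probe sets were called in each of 12 comparisons. The share of all probe sets called was 0.0311% in -/- against WT, 0.0822% in Neo/Neo against WT, 0.0311% in Neo/+ against WT, and 0.00222% in each of Neo2/-, Neo2/Neo and Neo2/Neo2 against WT. It was 0% in +/- against WT, in Neo2/+ against WT, in embryos with 0 against 1 wild-type allele, and for a slope on the Tbx1 signal. It was 0.0244% in -/- against the 4 remaining genotypes with no wild-type allele, and 0.275% for any difference between the 9 genotypes.

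With so few calls over the whole array, a member count of 0 is near the background. At an unadjusted p under 0.05, limma marked 1 of the 19 member probe sets in -/- against WT (15.1% of all probe sets), 3 in Neo/Neo (7.01%), 0 in Neo2/- (6.28%), 1 in Neo2/Neo (6.72%) and 6 in Neo2/Neo2 (11.6%). It marked 0 in +/- (11.7%), 2 in Neo/+ (7.36%) and 0 in Neo2/+ (6.51%). In -/- against the 4 remaining genotypes with no wild-type allele it marked 4 (17.5%), with 0 against 1 wild-type allele 1 (4.53%), on the Tbx1 slope 4 (8.74%) and over the 9 genotypes 4 (13.7%). Over the brightest probe sets, the widest bound of a 95% interval was 0.67 in log2 for -/- minus WT, a 1.59-fold difference, and 0.78 for Neo/Neo minus WT. Larger differences than these lie outside the intervals of the brightest probe sets of all 9 genes. The dimmer probe sets are not covered by these bounds.

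**Figure D1:**
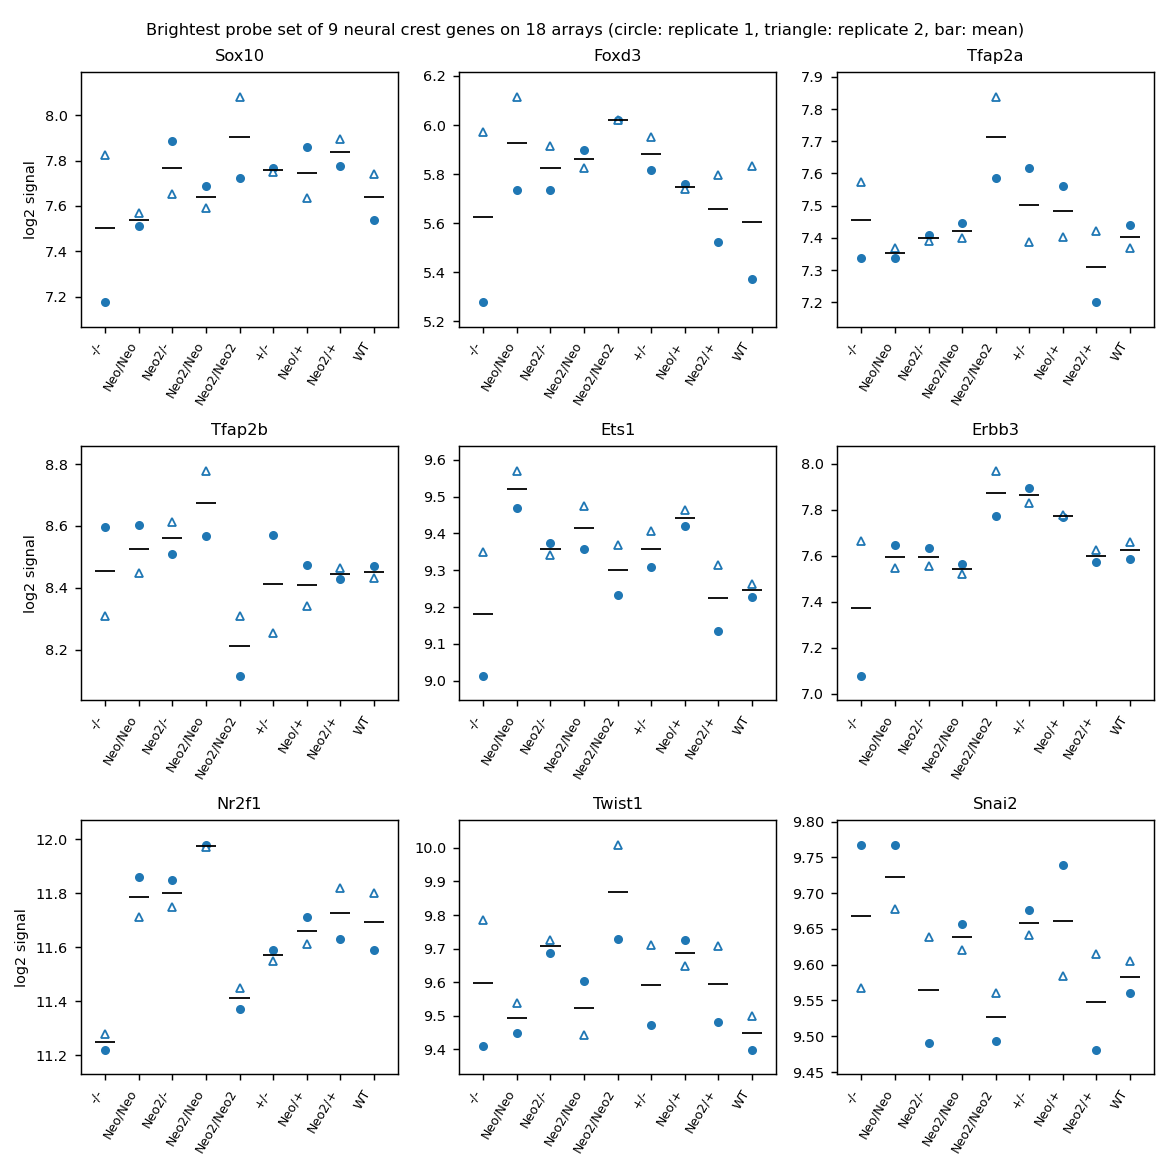
Log2 signal (vertical axis, a scale for each panel) of the brightest probe set of the 9 neural crest genes in each of 18 embryos, by Tbx1 genotype with the mutants left of WT. Circles are replicate 1, triangles replicate 2 and bars the mean of both. In the Nr2f1 panel both -/- embryos, at 11.22 (replicate 1) and 11.28, lie below all others. In the Sox10, Foxd3, Ets1 and Erbb3 panels -/- replicate 1 is the lowest point.

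**Figure D2:**
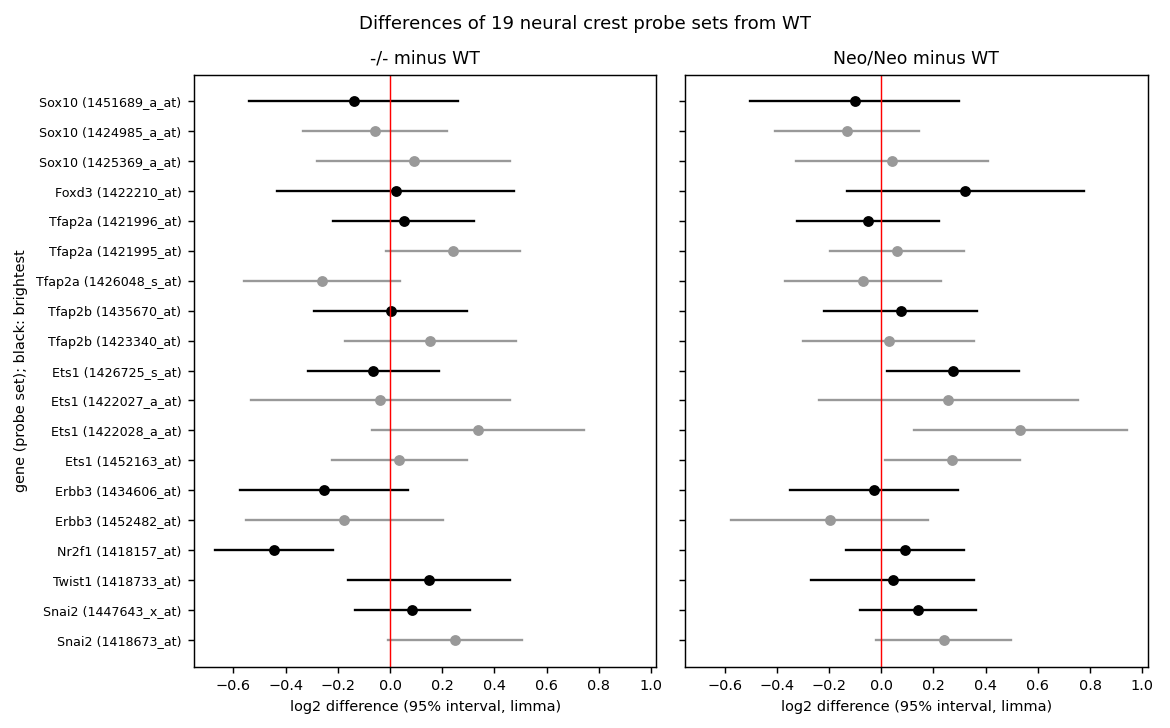
Log2 difference from WT (horizontal axis) of the 19 probe sets in -/- embryos (left) and Neo/Neo embryos (right), with 95% intervals from limma and 2 embryos a genotype. Black marks the brightest probe set of a gene and grey the others, and the Nr2f1 interval in -/- embryos runs from -0.67 to -0.22.

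Among the plate border factors, Tfap2a, an AP-2 transcription factor that crest induction needs, had a log2 signal of 7.34 and 7.57 in -/- embryos, 7.34 and 7.37 in Neo/Neo, 7.41 and 7.39 in Neo2/-, 7.45 and 7.40 in Neo2/Neo and 7.59 and 7.84 in Neo2/Neo2 embryos, against 7.44 and 7.37 in WT embryos. Embryos with 1 wild-type allele had 7.62 and 7.39 (+/-), 7.56 and 7.40 (Neo/+) and 7.20 and 7.42 (Neo2/+). The -/- and WT ranges overlapped, and Neo2/Neo2 replicate 2 had the highest value of all 18 embryos. Tfap2a differed by 0.05 between -/- and WT embryos (SE 0.13, adjusted p = 0.898, limma) and by 0.31 between Neo2/Neo2 and WT embryos (SE 0.13, adjusted p = 0.366). Its 3 probe sets did not give 1 direction in -/- embryos: the differences from WT were 0.05, 0.24 and -0.26. The last was that of the probe set 1426048_s_at. It was -0.47 without -/- replicate 2, where -/- replicate 1, whose array stands apart, was the only -/- embryo. In Neo2/Neo2 embryos all 3 probe sets lay above WT (0.31, 0.35 and 0.20), and each had its highest genotype mean there.

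Tfap2b, the paralog that acts beside Tfap2a in facial and cardiac crest, ran the other way in Neo2/Neo2 embryos. Its signal was 8.60 and 8.31 in -/- embryos, 8.60 and 8.45 in Neo/Neo, 8.51 and 8.61 in Neo2/-, 8.57 and 8.78 in Neo2/Neo and 8.12 and 8.31 in Neo2/Neo2 embryos, against 8.47 and 8.43 in WT embryos. With 1 wild-type allele, the values were 8.57 and 8.25 (+/-), 8.47 and 8.34 (Neo/+) and 8.43 and 8.46 (Neo2/+). Both Neo2/Neo2 values lay below both WT values, while the WT values lay within the -/- range. The difference from WT was -0.24 in Neo2/Neo2 embryos (SE 0.14, adjusted p = 0.537, limma), 0.22 in Neo2/Neo embryos (adjusted p = 0.818) and below 0.01 in -/- embryos (adjusted p = 0.998). The second Tfap2b probe set differed by less than 0.01 between Neo2/Neo2 and WT embryos.

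Foxd3, a forkhead repressor of early and premigratory crest, had a mean signal of 5.79, close to the median of the means of all probe sets (5.80), so its level cannot be told from background. It was 5.28 and 5.97 in -/- embryos, 5.74 and 6.12 in Neo/Neo, 5.74 and 5.91 in Neo2/-, 5.90 and 5.82 in Neo2/Neo and 6.02 and 6.02 in Neo2/Neo2 embryos, against 5.37 and 5.83 in WT embryos. Heterozygous embryos had 5.82 and 5.95 (+/-), 5.76 and 5.74 (Neo/+) and 5.52 and 5.80 (Neo2/+). The WT embryos lay within the range of the -/- embryos, which differed by more than the pair of any other genotype. The log2 difference from WT was 0.02 in -/- embryos (SE 0.21, adjusted p = 0.978, limma), 0.32 in Neo/Neo (adjusted p = 0.855) and 0.42 in Neo2/Neo2 embryos (adjusted p = 0.472).

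The zinc finger repressor Snai2 was the steadiest member. Its brightest probe set ran from 9.48 to 9.77 over the 18 embryos, and its SD of 0.087 was above that of 5.04% of all probe sets. Snai2 was 9.77 and 9.57 in -/- embryos and 9.77 and 9.68 in Neo/Neo embryos, against 9.56 and 9.61 in WT embryos. Both Neo/Neo values lay above both WT values, while -/- replicate 2 lay between the WT values. The difference from WT was 0.09 in -/- embryos (SE 0.10, adjusted p = 0.761, limma) and 0.14 in Neo/Neo embryos (SE 0.10, adjusted p = 0.896). The dimmer Snai2 probe set, 1418673_at, was 7.80 and 7.63 in -/- embryos, against 7.41 and 7.52 in WT embryos, with a difference of 0.25 (adjusted p = 0.350). Both -/- values of this probe set were above both WT values.

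Twist1, the basic helix-loop-helix factor that keeps cranial crest mesenchymal and is also expressed in mesoderm, had its lowest genotype mean in WT embryos. Its signal was 9.41 and 9.79 in -/- embryos, 9.45 and 9.54 in Neo/Neo, 9.69 and 9.73 in Neo2/-, 9.60 and 9.44 in Neo2/Neo and 9.73 and 10.01 in Neo2/Neo2 embryos, against 9.40 and 9.499 in WT embryos. In heterozygous embryos it was 9.47 and 9.71 (+/-), 9.73 and 9.65 (Neo/+) and 9.48 and 9.71 (Neo2/+). Both Neo2/Neo2 embryos were above both WT embryos, and replicate 2 of Neo2/Neo2 was the highest of the 18. The difference from WT was 0.42 in Neo2/Neo2 embryos (SE 0.14, 95% interval 0.11 to 0.73, adjusted p = 0.295, limma) and 0.15 in -/- embryos (SE 0.14, adjusted p = 0.691).

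Ets1, an ETS factor of delaminating cranial and cardiac crest and of endothelium, had Neo/Neo and Neo/+ as its 2 highest genotype means on each of its 4 probe sets. The bright pair, 1426725_s_at and 1452163_at, had an r of 0.75 over the 18 arrays and the dim pair, 1422027_a_at and 1422028_a_at, an r of 0.82. Between the pairs r was 0.24, 0.30, 0.39 and 0.61. On the brightest, Ets1 was 9.01 and 9.35 in -/- embryos, 9.47 and 9.57 in Neo/Neo, 9.37 and 9.34 in Neo2/-, 9.36 and 9.47 in Neo2/Neo and 9.23 and 9.37 in Neo2/Neo2 embryos, 9.31 and 9.41 in +/-, 9.42 and 9.46 in Neo/+ and 9.14 and 9.31 in Neo2/+ embryos, against 9.23 and 9.26 in WT embryos. Both embryos of Neo/Neo, Neo2/-, Neo2/Neo, +/- and Neo/+ were above both WT embryos, and the WT values lay within the -/- range. On this probe set -/- replicate 1 was the lowest of the 18. The difference from WT was 0.27 in Neo/Neo embryos (SE 0.12, adjusted p = 0.662, limma) and -0.06 in -/- embryos (SE 0.12, adjusted p = 0.859).

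The dim probe set 1422028_a_at of Ets1 was 6.11 and 5.83 in -/- embryos, 6.06 and 6.27 in Neo/Neo, 5.33 and 5.28 in Neo2/Neo2 and 6.44 and 6.48 in Neo/+ embryos, against 5.83 and 5.43 in WT embryos. Both Neo/+ embryos were above every other embryo, and both Neo2/Neo2 embryos were below every other. This probe set had a mean signal of 5.79, close to the median of the means of all probe sets (5.80). As for Foxd3, its level cannot be told from background. The difference from WT was 0.83 in Neo/+ embryos (SE 0.19, adjusted p = 0.259, limma) and 0.53 in Neo/Neo embryos (SE 0.19, adjusted p = 0.570). Its test over the 9 genotypes gave F = 6.93 and adjusted p = 0.119, and limma called it with array weights (adjusted p = 0.0455). Leaving out -/- replicate 2 gave F = 7.28, and leaving out +/- replicate 2 gave F = 6.74. In each of these 2 fits, an array that stands apart was the only one of its genotype. The other dim probe set had its lowest genotype mean in Neo2/Neo2 embryos (difference from WT -0.61, adjusted p = 0.329) and its highest in Neo/+ embryos (0.39, adjusted p = 0.762). In Neo/+ embryos the differences of the bright pair were 0.20 and 0.32 (adjusted p = 0.771 and 0.587), and in Neo2/Neo2 embryos they were 0.06 and 0.09.

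**Figure D3:**
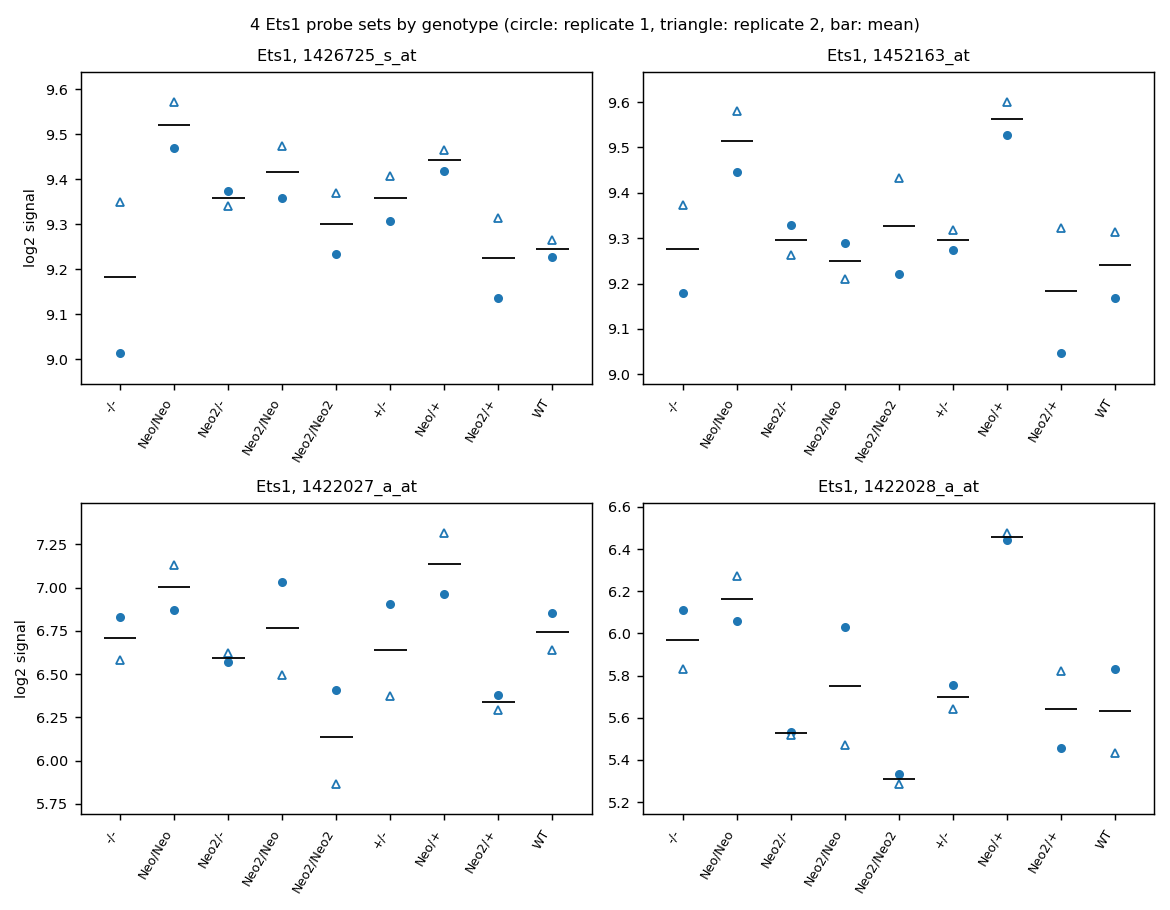
Log2 signal (vertical axis, a scale for each panel) of the 4 Ets1 probe sets by Tbx1 genotype in 18 embryos, with the mutants left of WT. Circles are replicate 1, triangles replicate 2 and bars the mean of both. The dim probe set 1422028_a_at is highest in Neo/+ embryos (6.44 and 6.48) and lowest in Neo2/Neo2 embryos (5.33 and 5.28).

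Sox10, the SoxE factor that migrating crest needs to survive and to form glia and pigment cells, was 7.18 and 7.83 in -/- embryos, 7.51 and 7.57 in Neo/Neo, 7.88 and 7.65 in Neo2/-, 7.69 and 7.59 in Neo2/Neo and 7.73 and 8.08 in Neo2/Neo2 embryos, against 7.54 and 7.74 in WT embryos. The heterozygous embryos were at 7.77 and 7.75 (+/-), 7.86 and 7.63 (Neo/+) and 7.78 and 7.90 (Neo2/+). Replicate 1 of -/- was the lowest of the 18 and replicate 2 was above both WT embryos. The -/- minus WT difference of Sox10 was -0.14 (SE 0.18, 95% interval -0.54 to 0.26, adjusted p = 0.790, limma). Without the 2 arrays that stand apart it was 0.19 (adjusted p = 0.629), a change of sign. The dim Sox10 probe set 1425369_a_at (mean signal 5.02) was 5.49 and 4.85 in +/- embryos, against 4.84 and 4.89 in WT embryos. Without +/- replicate 2 its difference from WT was 0.63, with +/- replicate 1, whose array stands apart, as the only +/- embryo.

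Erbb3, the receptor through which neuregulin acts on migrating and glial crest, showed the same split of the -/- pair. It was 7.08 and 7.66 in -/- embryos, 7.65 and 7.55 in Neo/Neo, 7.64 and 7.56 in Neo2/-, 7.57 and 7.52 in Neo2/Neo and 7.77 and 7.97 in Neo2/Neo2 embryos, against 7.59 and 7.66 in WT embryos. Among heterozygous embryos the values were 7.90 and 7.83 (+/-), 7.77 and 7.78 (Neo/+) and 7.57 and 7.62 (Neo2/+). Both embryos of Neo2/Neo2, +/- and Neo/+ were above both WT embryos, and -/- replicate 1 was below all others. The -/- minus WT difference was -0.25 (SE 0.15, adjusted p = 0.455, limma). It was 0.04 without the 2 arrays that stand apart (adjusted p = 0.895) and -0.55 without -/- replicate 2 (adjusted p = 0.00857), where 11.4% of all probe sets were called, so the sign and the call rest on which -/- embryo is kept. The same omission of the 2 arrays that stand apart gave -/- minus WT differences of 0.37 for Foxd3, 0.34 for Twist1, 0.17 for Tfap2a and 0.10 for Ets1, and of -0.14 for Tfap2b and -0.02 for Snai2, none of them called.

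Nr2f1 had the smallest p over the 9 genotypes among the members (F = 8.67, adjusted p = 0.0823, limma) and replicates that lay close together. Its signal was 11.22 and 11.28 in -/- embryos, 11.86 and 11.71 in Neo/Neo, 11.85 and 11.75 in Neo2/-, 11.98 and 11.97 in Neo2/Neo and 11.37 and 11.45 in Neo2/Neo2 embryos, against 11.59 and 11.80 in WT embryos. Embryos with 1 wild-type allele had 11.59 and 11.55 (+/-), 11.71 and 11.61 (Neo/+) and 11.63 and 11.82 (Neo2/+). Both -/- embryos were below the other 16, the Neo2/Neo2 embryos came next, and the Neo2/Neo embryos were the highest. From low to high the genotype means ran -/-, Neo2/Neo2, +/-, Neo/+, WT, Neo2/+, Neo/Neo, Neo2/- and Neo2/Neo, with 4 of the 8 gaps between neighbours above the pooled SD within genotypes of 0.086. The order does not follow that of the Tbx1 signal: the mean was 11.79 in Neo/Neo embryos, where Tbx1 was as low as in -/- embryos, and 11.41 in Neo2/Neo2 embryos, where Tbx1 was at the WT level, against 11.70 in WT embryos.

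The -/- minus WT difference of Nr2f1 was -0.45 (SE 0.10, 95% interval -0.67 to -0.22, a 0.734-fold level, adjusted p = 0.127, limma). It was -0.42 without the 2 arrays that stand apart (adjusted p = 0.154), and it was called without -/- replicate 2 alone (adjusted p = 0.0323, with 11.4% of all probe sets called). The other differences from WT were -0.28 in Neo2/Neo2 embryos (adjusted p = 0.319), 0.28 in Neo2/Neo embryos (adjusted p = 0.664) and 0.09 in Neo/Neo embryos (adjusted p = 0.983). Against the 4 remaining genotypes with no wild-type allele, whose 8 embryos ran from 11.37 to 11.98, the -/- embryos differed by -0.49 (SE 0.08, adjusted p = 0.0505), just outside the threshold. It kept its sign in all 25 alternatives (-0.60 to -0.47). Leaving out an embryo with a wild-type allele cannot move this difference, and the block, weights, filter and trend left it at -0.49. It was called in 7 of the 25 alternatives. These included leaving out either +/- embryo (-0.49 in both), Neo2/- replicate 2 (-0.50) or -/- replicate 2 (-0.52), each with 1 embryo left in a genotype. Without -/- replicate 2, the only -/- embryo was replicate 1, whose array stands apart. The Nr2f1 difference was not called in the other 18, among them array weights (adjusted p = 0.583, limma). Nor was it called without -/- replicate 1 or without the 2 arrays that stand apart (-0.47 in both).

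The mean signal of the neuron and cranial ganglion markers, 8 of 9 of them measured, also differed between genotypes at the ends of the Nr2f1 order. It was 8.13 and 7.73 in -/- embryos, 7.68 and 7.74 in Neo2/Neo2 embryos and 8.69 and 8.82 in Neo2/Neo embryos, against 8.29 and 8.22 in WT embryos. It did not follow Nr2f1 in every embryo: -/- replicate 1, the lowest of the 18 for Nr2f1, had a higher mean than both +/- embryos (7.917 and 8.001). None of these markers was called in -/- or Neo2/Neo2 against WT, 7 of the 8 lay below WT in each, and their part in the Nr2f1 values was not tested. The paralog Nr2f2, a nuclear receptor of mesenchyme and veins, had genotype means of 9.57 in -/-, 10.19 in Neo/Neo, 9.82 in Neo2/Neo2 and 10.09 in Neo2/Neo embryos, against 10.07 in WT embryos. Its -/- minus WT difference was -0.50 (SE 0.15, adjusted p = 0.163, limma).

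**Figure D4:**
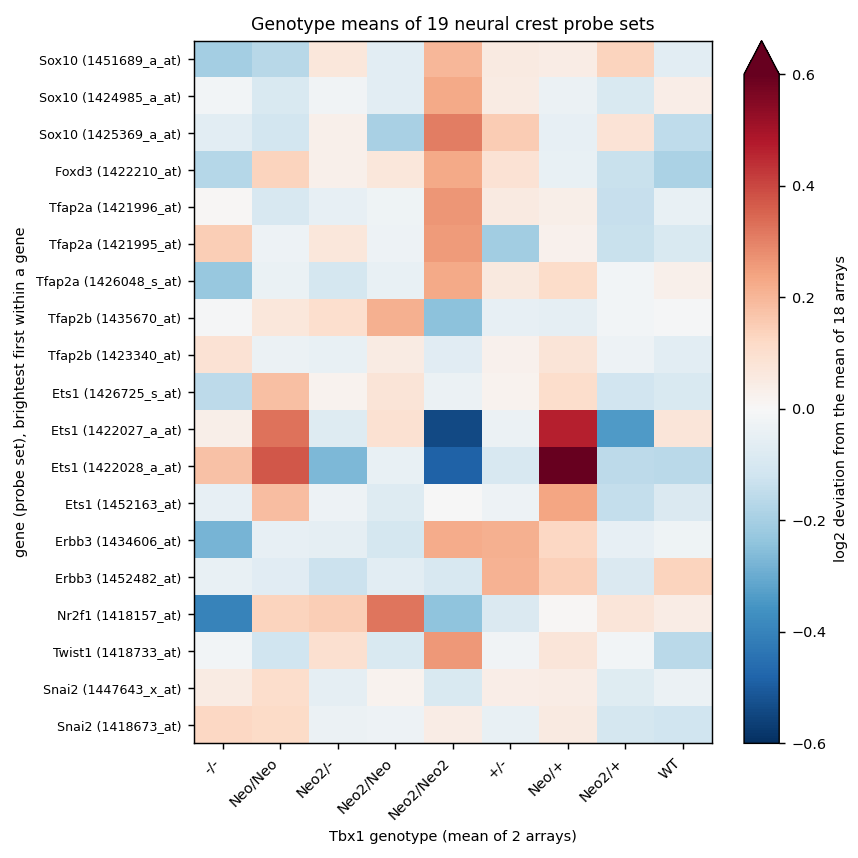
Deviation of each genotype mean (2 embryos) from the mean of all 18 arrays, in log2, for the 19 probe sets (vertical) and 9 genotypes (horizontal, mutants left of WT). Red is above and blue below the mean, and the scale stops at 0.6 either way. Nr2f1 is lowest in -/- and highest in Neo2/Neo embryos, and most Sox10, Foxd3, Tfap2a and Twist1 probe sets are highest in Neo2/Neo2 embryos.

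Neo2/Neo2 embryos held the most member probe sets with an unadjusted p under 0.05, with 6 of 19 against 11.6% of all probe sets, and none was called. On the brightest probe sets, Sox10, Foxd3, Tfap2a, Erbb3 and Twist1 had their highest genotype mean there, and Tfap2b and Snai2 their lowest. The dimmer probe sets of Sox10 and Tfap2a were also highest there, and that of Tfap2b lowest. The dimmer probe sets of Erbb3 (4.02, against 4.25 in WT embryos) and Snai2 (7.63, against 7.465) opposed the brightest. So did the dim Ets1 pair, 1422027_a_at (6.135, against 6.746) and 1422028_a_at (5.308, against 5.633), each with its lowest genotype mean there. The brightest Ets1 probe set was 9.301, against 9.245 in WT embryos. The median log2 difference from WT over the 19 probe sets was 0.17, against 0.0045 over all probe sets, and the median of its size was 0.25, against 0.13. The 3 Sox10 probe sets differed by 0.26, 0.18 and 0.46 from WT (adjusted p = 0.636, 0.627 and 0.324, limma). Marker lists of other tissues differed too, though not in these embryos alone. The mean signal of the 7 surface ectoderm markers was 8.33 and 8.36, against 7.76 and 7.99 in WT embryos, and all 7 lay above WT. They also all lay above WT in Neo/Neo embryos, at 8.08 and 8.15. The 6 primitive erythroid markers all lay below WT in Neo2/Neo2, +/-, Neo/+ and Neo2/+ embryos, with mean signals of 11.04 and 10.77 in Neo2/Neo2 and 10.91 and 10.83 in Neo2/+ embryos, against 11.41 and 11.35 in WT embryos. None of these markers was called, and the part of tissue make-up or stage in the member values was not tested.

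Against the Tbx1 signal, the 9 genes gave slopes on either side of 0, and none was called. Erbb3 had a slope of 0.19 log2 units per log2 unit of Tbx1 (SE 0.062, adjusted p = 0.553, limma), and Sox10 one of 0.18 (SE 0.065, adjusted p = 0.553). Both slopes rest in part on -/- replicate 1, which was lowest for each: without it they were 0.11 and 0.10 (adjusted p = 0.860 for both). Tfap2a and Twist1 had slopes of 0.07 and 0.06, Foxd3 and Nr2f1 were within 0.01 of 0, and Ets1, Snai2 and Tfap2b had slopes of -0.05, -0.07 and -0.10. The median slope of the 19 probe sets was -0.0027, against 0.011 over all 45036 tested.

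**Figure D5:**
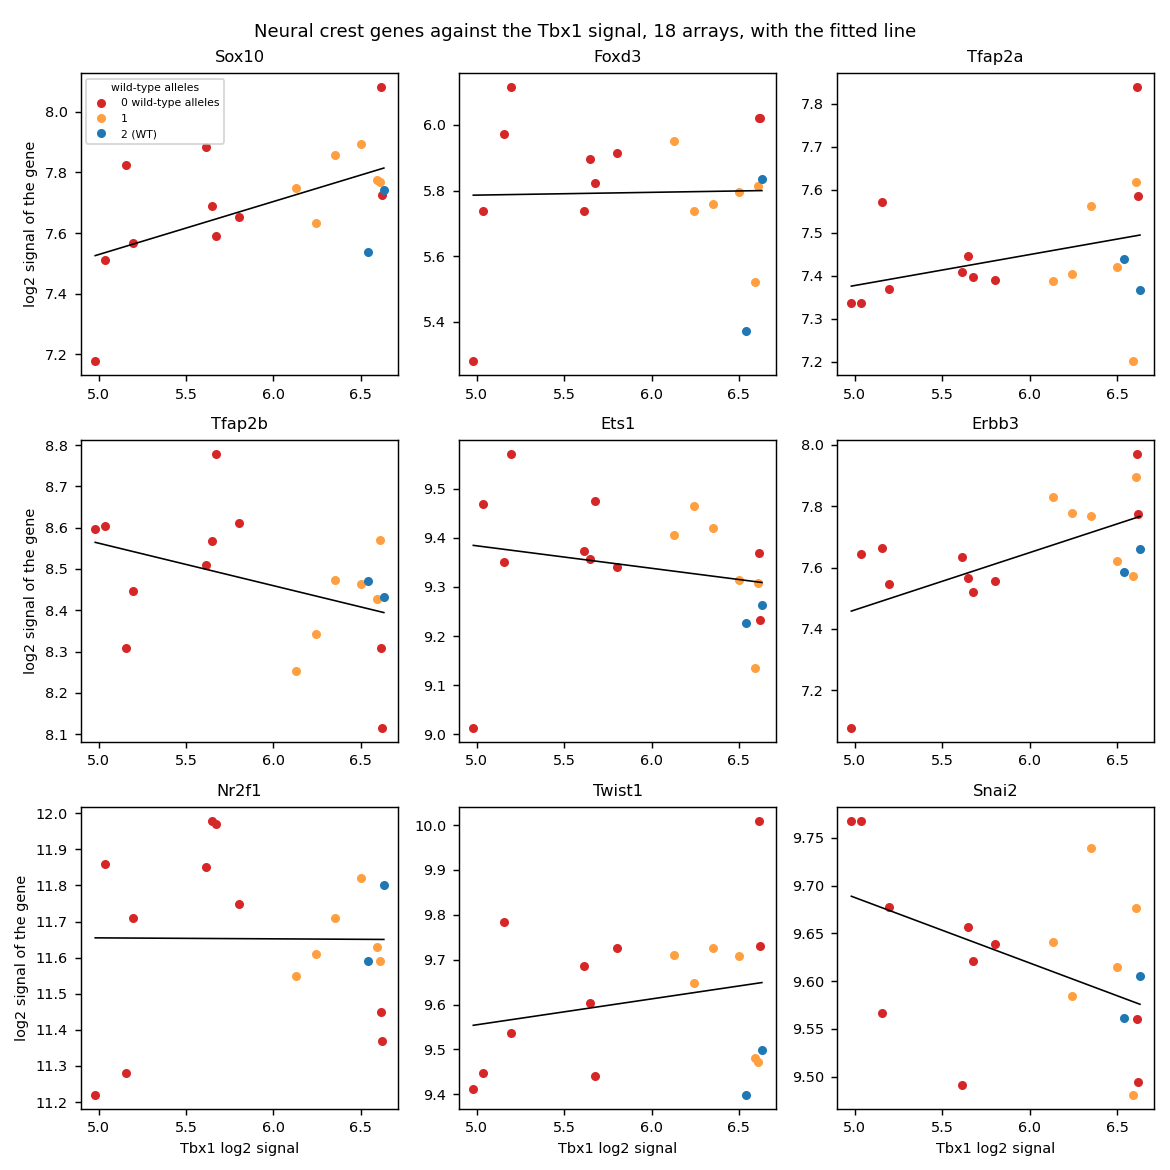
Log2 signal of the brightest probe set of each of the 9 genes (vertical axis) against the log2 Tbx1 signal (horizontal axis) in 18 embryos, with the line fitted over all of them. Red points have 0, orange 1 and blue 2 wild-type alleles. The Sox10 and Erbb3 lines slope upward (0.18 and 0.19 per log2 unit) and have -/- replicate 1 at their lower left end, and the Nr2f1 line is flat.

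The number of wild-type alleles separated none of the members. Embryos with 0 wild-type alleles (n = 10) and 1 (n = 6) had mean Nr2f1 signals of 11.64 ± 0.29 and 11.65 ± 0.10 (SD), mean Sox10 signals of 7.67 ± 0.24 and 7.78 ± 0.09, and mean Erbb3 signals of 7.60 ± 0.23 and 7.75 ± 0.12. The SD was larger with 0 wild-type alleles for each of these 3 genes, and the 10 embryos hold 5 genotypes. The differences over the brightest probe sets ran from -0.15 for Erbb3 (adjusted p = 0.888, limma) to 0.09 for Foxd3 (adjusted p = 0.917).

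Further genes of the crest programme came from 6 lists: plate border genes, other crest specifiers, migrating crest and its derivatives, ectomesenchyme, partners of ErbB receptors, and close paralogs of the members. They held 63 genes, of which 59 were measured, and none was called in any of the 12 comparisons. In -/- against WT, 38 of the 59 lay below and 21 above WT, with a median difference of -0.09 against 0.02 over all genes. At an unadjusted p under 0.05 limma marked 8 of them (13.6%, against 15.5% of all genes). Pax3, a paired box factor of the plate border and dorsal neural tube, had a mean of 8.07 in -/- embryos, against 8.70 in WT embryos (difference -0.62, adjusted p = 0.167). Barx1, a homeobox gene of arch ectomesenchyme, differed by -0.39 (SE 0.14, adjusted p = 0.220), and Alx1, a homeobox gene of facial mesenchyme, by 0.37 (SE 0.17, adjusted p = 0.317).

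In -/- against the 4 remaining genotypes with no wild-type allele, 44 of the 59 lay below 0 and 14 (23.7%) had an unadjusted p under 0.05, against 19.5% of all genes. Neural lists lay below 0 in the same comparison: 6 of 6 neural progenitor markers (median -0.37, 4 with an unadjusted p under 0.05) and 7 of 8 neuron and cranial ganglion markers (median -0.30, 4 with an unadjusted p under 0.05), none of them called. Their part in the values of the crest genes was not tested. Pdgfra, the PDGF receptor of crest mesenchyme, differed by -0.38 (SE 0.078, adjusted p = 0.0659, limma), Cdh2, the N-cadherin gene, by -0.37 (adjusted p = 0.0840), and Msx1, a homeobox gene of arch ectomesenchyme, by -0.54 (adjusted p = 0.101). Over all 9 genotypes Pdgfra had an adjusted p of 0.0949 in limma's F-test, with genotype means of 10.03 in -/-, 10.12 in Neo2/Neo2 and 10.65 in Neo2/Neo embryos, against 10.33 in WT embryos. Like Nr2f1, it was lowest in -/-, next lowest in Neo2/Neo2 and highest in Neo2/Neo embryos.

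Of the close paralogs, Tfap2c, an AP-2 gene of early ectoderm and crest, differed by 0.81 between Neo/Neo and WT embryos (SE 0.19, adjusted p = 0.246, limma). Sox9, the SoxE gene of early crest and cartilage, differed by 0.55 between Neo2/Neo and WT embryos (SE 0.13, adjusted p = 0.503), with means of 8.43 in Neo2/Neo and 7.88 in WT embryos. Snai3, a paralog of Snai2, differed by -0.32 between Neo/Neo and WT embryos (SE 0.12, adjusted p = 0.591). On the Tbx1 signal, Erbb2, the kinase partner of Erbb3, had a slope of 0.23 (SE 0.091, adjusted p = 0.554), and Dlx5, a homeobox gene of the plate border and ventral arches, one of 0.26 (SE 0.066, adjusted p = 0.553). Slopes of the 59 genes had a median of 0.017, against 0.0060 over all genes.

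The genes whose signal most resembled each member were found by Pearson's r over the 18 arrays among 18192 other genes, as a description of arrays that share genotype, stage and quality. For Nr2f1 they were Bnc2 (r = 0.97), Frmd4a (0.96) and Antxr1 (0.94), and all 3 stayed above 0.92 without the 2 arrays that stand apart. Erbb3 was most like Ncln (0.98), G6pc3 (0.95) and Ints1 (0.94), and Sox10 was most like Paxip1 (0.92), Timeless (0.91) and Acvr2b (0.90). Without those 2 arrays the values for Ints1 and Acvr2b were 0.86 and 0.82. Nearest to Twist1 were Smtn (0.91), Ing3 and Psme3 (0.89 each), to Foxd3 Pfkfb3 (0.91), Spred1 (0.86) and Wdr59 (0.85), and to Tfap2a Map2k5 (0.88), Spring1 and Jup (0.86 each). For Tfap2b the 3 were Slc36a4 (0.90), Atoh1 (0.89) and Zfand4 (0.88), for Ets1 Lasp1 (0.86), Ptprm and Cpd (0.85 each), and for Snai2 Kansl1l (0.82), Purg (0.81) and Gstt2 (0.80). No member was among the 3 nearest genes of another.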

How the data were processed

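RNA of 18 whole embryos was measured on Affymetrix mouse arrays, from 6 ug of total RNA each. The submitters' processing notes name affy and RMA, and the authors deposited log2 values per probe set. RMA corrects background, sets the arrays to 1 distribution by quantile normalization and summarises probes by median polish, which can hide a shift shared by most genes. Their versions and filters are not given in the sources.

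No rescaling was done. All 45037 probe sets were fitted with limma 3.58.1 in R 4.3.3 (lmFit and eBayes, 9 genotype means, 9 residual degrees of freedom), and contrasts were two-sided with Benjamini-Hochberg adjustment over all probe sets. The slope on the Tbx1 signal and the comparison of 0 with 1 wild-type allele had fits of their own, so embryos of one genotype count there as separate samples. The scripts were tested on simulated data. There, limma in -/- against WT called 13% of the changes of 0.5 in log2 and 71% of those of 1. A count of 0 calls can thus miss changes of such size. The annotation gave 1 symbol to 34945 probe sets, several to 932 and none to 9160, and no member probe set had several. All members are named at every probe set, along with up to 4 genes with the smallest p from each related list in a comparison, and the 3 genes most like each member. Replicates are separate embryos, and their numbers did not pair samples across genotypes. Members, lists and alternatives were chosen with earlier results of these data known. Alternatives were leaving out each embryo, both Neo2/Neo2 embryos or 2 arrays that stand apart, a replicate block, array weights, median centring, a filter on dim probe sets and an intensity trend.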

Additional observations from a re-analysis of the deposited data

Results flagged for a closer look

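Each of the 9 genes was screened for an embryo far from the rest of its group, over the embryos with 0 wild-type alleles (n = 10) and those with 1 (n = 6), which made 18 groups. The screen marked 3 of them, where chance marks about 1 group in 20 if its embryos are alike. The 10 embryos hold 5 genotypes and the 6 hold 3, and 2 of the 3 marks come from the same array. Foxd3 was 5.28 in -/- replicate 1, with 5.74 as the next value among the 10 embryos without a wild-type allele, a gap of 0.546 of their range. Erbb3 was 7.08 in the same embryo, with 7.52 as the next value and a gap of 0.494 of the range. That array is 1 of the 2 that stand apart, with a median correlation of 0.985 to the others. Tfap2a was 7.84 in Neo2/Neo2 replicate 2, with 7.59 as the next value, that of Neo2/Neo2 replicate 1, and a gap of 0.503 of the range. No cause was tested for any of these values.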

How the results depend on the processing

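The count of called member probe sets was 0 in all 12 comparisons with the values as deposited. It was also 0 in all 12 with the replicate block, with arrays centred on their medians and without the 2 arrays that stand apart. The replicate numbers did not pair embryos (correlations of deviations between same-numbered embryos ran from -0.26 to 0.19 over 36 pairs, 9 of them over 0.1), and the block called 0 member probe sets. For -/- against the 4 remaining genotypes with no wild-type allele, 1 was called without both Neo2/Neo2 embryos, 1 with probe sets above the median signal only and 1 with an intensity trend, each time Nr2f1. For any difference between the 9 genotypes, 2 were called with array weights (Nr2f1 and the dim Ets1 probe set 1422028_a_at) and 1 with the trend (Nr2f1). Leaving out 1 embryo at a time gave 0 to 3 calls in -/- against WT (0 to 2 over the brightest probe sets), 0 to 1 in +/- against WT (the dim Sox10 probe set 1425369_a_at, without +/- replicate 2), 0 to 6 in -/- against those 4 genotypes (Nr2f1, Foxd3, Tfap2a, Ets1, Erbb3 and Sox10, without -/- replicate 2), and 0 to 3 over the 9 genotypes. The highest counts came without -/- replicate 2, when 5121 probe sets were called in -/- against WT, and without +/- replicate 2, when 5066 were called in +/- against WT, so that 1 of the arrays that stand apart was the only one of its genotype and was assumed to vary like the others. Over all settings the count of all called probe sets ran from 0 to 5121 in -/- against WT (14 as reported), 0 to 136 in Neo/Neo (37), 0 to 911 in Neo2/Neo2 (1), 0 to 5066 in +/- (0), 0 to 6598 in -/- against the 4 remaining genotypes (11) and 21 to 4777 over the 9 genotypes (124). No value was possible for Neo2/Neo2 against WT without the Neo2/Neo2 embryos. The filter on dim probe sets left out Foxd3 and dim probe sets of other members, such as 1422028_a_at of Ets1.

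Differences near 0 changed sign, and the cause was not tested. Leaving out 1 embryo at a time, -/- minus WT ran from -0.46 to 0.19 for Sox10, -0.32 to 0.37 for Foxd3, -0.066 to 0.17 for Tfap2a, -0.14 to 0.15 for Tfap2b, -0.23 to 0.10 for Ets1, -0.55 to 0.04 for Erbb3, -0.038 to 0.34 for Twist1 and -0.02 to 0.19 for Snai2. Nr2f1 kept its sign, from -0.55 to -0.34. Neo/Neo minus WT ran from -0.20 to 0.00015 for Sox10, -0.0044 to 0.15 for Tfap2b, -0.075 to 0.022 for Erbb3, -0.014 to 0.19 for Nr2f1 and -0.0060 to 0.094 for Twist1. For 0 against 1 wild-type allele the ranges were -0.0097 to 0.074 for Tfap2a, -0.027 to 0.052 for Ets1, -0.044 to 0.040 for Nr2f1, -0.028 to 0.039 for Twist1 and -0.027 to 0.025 for Snai2, and for the slope on Tbx1 -0.095 to 0.057 for Foxd3 and -0.091 to 0.036 for Nr2f1.

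Without the 2 arrays that stand apart, -/- minus WT was 0.19 for Sox10, -0.14 for Tfap2b, 0.10 for Ets1, 0.041 for Erbb3 and -0.016 for Snai2, the allele difference was 0.027 for Nr2f1 and -0.0036 for Snai2, and the Foxd3 slope was -0.10. Without both Neo2/Neo2 embryos the allele difference was -0.025 for Tfap2a, 0.051 for Nr2f1 and -0.045 for Twist1, and the slope was -0.048 for Foxd3 and 0.058 for Nr2f1. Array weights gave allele differences of 0.082 for Nr2f1 and -0.025 for Twist1 and a Foxd3 slope of -0.052, and centring gave 0.025 for Nr2f1. Dimmer probe sets opposed the brightest in -/- minus WT for Sox10 (0.090), Tfap2a (-0.26) and Ets1 (0.34 and 0.035), and in Neo/Neo minus WT for Sox10 (0.041) and Tfap2a (0.062). They did so in the allele difference for Sox10 (0.032), Tfap2a (-0.088), Tfap2b (-0.028) and Ets1 (-0.063, -0.19 and -0.016), and in the slope for Tfap2a (-0.056). Counted over 4 comparisons and the 9 genes, leaving out 1 embryo kept the sign and side of the threshold of 595 values and turned the sign of 51. In -/- or Neo/Neo minus WT, leaving out an embryo of any other genotype cannot change the difference. Nor can leaving out a WT embryo change the allele difference, so many of the 595 could not turn. The other settings kept 231 and turned 17, and the other probe sets kept 27 and turned 13. RMA gives no background level per array, so whether a dim probe set such as that of Foxd3 lies above background cannot be judged.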
